A study of Mus musculus with 26 samples.

Results

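The genes described here are the nuclear-encoded subunits of oxidative phosphorylation, the 5 enzyme complexes of the mitochondrial inner membrane. They were chosen by gene symbol alone, as symbols that begin with Nduf (followed by a, b, c, s or v and a number), Uqcr, Atp5 or Cox4 to Cox8 with a letter a to c, together with Sdha to Sdhd and Cyc1, with symbols holding "-ps" left out. This gave 83 of the 46517 symbols in the table, and 78 of them reached 10 in 2 or more of the 26 libraries and were tested. The 78 are 36 of 37 members of complex I, 4 of 4 of complex II, 9 of 9 of complex III, 12 of 16 of complex IV and 17 of 17 of complex V. Members were placed in a complex by symbol alone, here and in all values by complex. Ndufa4 is thus counted in complex I, Cox7a2l in complex IV and Atp5sl in complex V, whatever their place in the cell. The symbol rule also takes in 4 genes that are not subunits in the strict sense: Cox7a2l, Atp5s, Atp5sl and Ndufa4l2. It misses Ndufab1, Cox4i1 and Cox4i2, which are given separately.

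Complexes I and II pass electrons from NADH and succinate to ubiquinone, complex III passes them on to cytochrome c, and complex IV, cytochrome c oxidase, passes them to oxygen. Complexes I, III and IV pump protons as they do so, and complex V, the ATP synthase, uses the returning protons to make ATP. Apart from complex II, each complex is a mixture of a few subunits encoded in mitochondrial DNA and many encoded in the nucleus, whose transcripts are the ones followed here.

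RNA was sequenced from thymocytes of 3 T cell receptor (TCR) transgenic lines, sorted at 3 stages of CD8 T cell positive selection. TG6 is the line of low, F5 of intermediate and OT-1 of high self-reactivity, and the comparison of lines asks how gene expression during selection differs with self-reactivity. The early stage was sorted as double positive cells with CXCR4 and without CCR7, the late stage as double positive cells that had lost CXCR4 and gained CCR7, and the mature stage as CD8 single positive cells with CCR7 and without CXCR4. Each of the 9 groups had 3 libraries, labelled as biological replicates, except TG6 late, which had 2. OT-1 mice were OT-1tg Rag2KO and F5 mice F5tg Rag1KO, both of strain C57/BL6, whereas TG6 mice were TG6tg H2b/d with both Rag genes intact, from a cross of C57/BL6 with B6.C-H2d/bByJ. No group was treated, and the labels give no age for a library. Because each line has its own transgene and Rag genotype, and TG6 also another strain background, the effect of self-reactivity cannot be told apart from these.

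The values are normalized counts, estimated reads per gene divided by a size factor of the library, with totals of 16134786 to 18944173 per library. Differences were taken between values on a log2 scale after adding 1, so that those of low genes come out too small, and a gene is called at a Benjamini-Hochberg adjusted p under 0.05 in a limma fit over all 16372 genes tested. The labels call the libraries of a group biological replicates without naming the animal, so p-values measure the spread between these samples. The 12 thymocyte genes looked at summed to 94070 to 243600 per library. At the early stage 8 of the 12 were called lower in OT-1 than in TG6 (Trac, Lck, Cd8a, Cd8b1, Cd4, Cxcr4 and the Rag genes, of which Rag2 is deleted in OT-1) and 1, Ccr7, higher, with 3 (Cd3d, Cd3e and Cd3g) not called. At the late and mature stages 4 and 3 of the 12 were called lower and 0 higher, and the sums did not overlap (107500 to 111800 in OT-1 against 143500 and 151100 in TG6, then 111900 to 121900 against 122600 to 149500). Against F5 the early sums were also lower without overlap (94070 to 101500 in OT-1, 129000 to 143100 in F5), while the late and mature sums overlapped. The part of these genes in the results was not tested. Sums for B cell genes (107.9 to 318.9), myeloid and dendritic genes (109.1 to 422.0) and thymic epithelial genes (39.95 to 90.98) were far lower. Early B cell sums did not overlap between OT-1 and the other lines, with 113.8 to 137.5 in OT-1 against 207.4 to 318.9 in TG6 and 227.7 to 283.7 in F5. Erythroid genes summed to 33.87 to 1280. Genes of NK and innate-like cells went from 4.853 to 113.0 at the early stage to 1359 to 2816 at the mature stage, where TG6 mature replicate 3 had the 1359. These genes moved with the lines. They summed at the early stage to 62.01 to 113.0 in OT-1, 8.152 to 15.83 in TG6 and 4.853 to 18.25 in F5, and at the late stage to 1493 to 1643 in OT-1, 518.5 and 630.5 in TG6 and 124.5 to 206.3 in F5. Stromal and endothelial genes lay between 1942 and 3734, and at the mature stage OT-1, with 1942 to 2155, was below F5 (2295 to 2621) and TG6 (2579 to 2709). The part of these lists in the differences between lines was not tested.

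One library was picked out by the level of the members themselves, with no test of whether it stands apart from its group. In TG6 mature replicate 3 the 83 members made up 0.852% of all normalized counts, against 0.608% and 0.582% in the other TG6 mature libraries, and it had the highest value of all 26 libraries for 35 of the 78 members tested (against 8.40% of all genes tested). The same library had 58350 normalized counts summed over 8 cell division genes (Mki67, Top2a, Cdk1, Ccnb1, Ccna2, Aurkb, Birc5 and Plk1), against 14690 and 16120. F5 mature replicate 2 had a like but smaller shift, with 0.746% for the members against 0.602% and 0.609%, and 46700 for the division genes against 16110 and 26240. The main counts on mature TG6 cells are therefore also given without TG6 mature replicate 3.

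Promoters of 6 genes are shown because the results turn on their genes: Cox8a, Cox5b and Ndufa4 were called between OT-1 and TG6 at all 3 stages, Uqcrh and Cox7a2l have a line difference that changes with stage, and Sdha was called in no comparison between lines. The sequences are from RefSeq on GRCm38.p6 and run from 120 bases before to 20 bases after the start of transcription, 5′ to 3′ on the strand of the gene, with matches to 3 motifs in capitals. The motifs are ACTTCCGG (ETS type, the letters bound by factors such as GABPA), GCGCA, any base and GCGC (NRF1 type) and AAGATGGC (YY1 type), searched on both strands. They do not overlap in the stretches shown. Cox8a is at chr19:7217597-7217736 (minus strand), Cox5b at chr1:36691367-36691506 (plus), Ndufa4 at chr6:11907431-11907570 (minus), Uqcrh at chr4:116075051-116075190 (minus), Cox7a2l at chr17:83514314-83514453 (minus) and Sdha at chr13:74350221-74350360 (minus).
Cox8a: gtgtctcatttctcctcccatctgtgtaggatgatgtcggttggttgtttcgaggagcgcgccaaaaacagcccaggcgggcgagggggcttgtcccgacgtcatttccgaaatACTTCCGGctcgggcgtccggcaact
Cox5b: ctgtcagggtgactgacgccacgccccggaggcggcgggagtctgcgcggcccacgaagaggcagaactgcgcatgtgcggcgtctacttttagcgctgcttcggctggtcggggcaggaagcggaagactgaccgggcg
Ndufa4: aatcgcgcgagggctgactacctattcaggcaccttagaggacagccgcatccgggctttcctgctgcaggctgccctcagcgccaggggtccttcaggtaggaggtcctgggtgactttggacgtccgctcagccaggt
Uqcrh: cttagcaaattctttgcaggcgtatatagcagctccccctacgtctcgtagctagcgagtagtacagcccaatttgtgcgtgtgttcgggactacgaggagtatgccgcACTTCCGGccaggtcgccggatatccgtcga
Cox7a2l: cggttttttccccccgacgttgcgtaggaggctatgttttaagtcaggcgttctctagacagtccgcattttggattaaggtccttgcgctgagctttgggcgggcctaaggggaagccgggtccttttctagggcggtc
Sdha: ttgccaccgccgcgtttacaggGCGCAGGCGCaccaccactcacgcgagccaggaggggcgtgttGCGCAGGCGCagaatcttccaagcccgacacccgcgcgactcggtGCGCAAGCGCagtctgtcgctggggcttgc
Cox8a and Uqcrh have ETS letters that begin 6 and 11 bases before the start, and Cox8a has a further match beyond the stretch shown. Sdha has the NRF1 letters 3 times, and Cox5b, Ndufa4 and Cox7a2l have none of the 3 motifs in the 300-base window searched. Over the 64 members tested that have a promoter sequence, 17 held the NRF1 motif (26.6%, against 11.0% of the 10390 genes tested with a promoter), 9 the YY1 motif (14.1% against 5.19%) and 5 the ETS motif (7.81% against 8.74%). At least 1 of the 3 was present in 45.3% of these members, against 22.7% of genes tested and 11.7% of all 27025 genes in the table. NRF1 letters were found in 7 of 32 complex I members, 2 of 3 of complex II, 1 of 5 of complex III, 1 of 11 of complex IV and 6 of 13 of complex V. Of the members with the NRF1 motif 10 of 17 were called higher in early OT-1 than in early TG6, and of those without it 34 of 47 (15.4% of all genes tested). These counts were 2 of 5 and 42 of 59 for the ETS motif and 3 of 9 and 41 of 55 for the YY1 motif.

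In level per kilobase of transcript (GENCODE vM21 principal transcript, 76 members with a length), the ATP synthase subunits led. Atp5b, the catalytic beta subunit, had a mean of 7548 normalized counts per kilobase over the 26 libraries, and Atp5a1, the alpha subunit, 4855. Atp5g3 (4031), Uqcrh (3873), Cox7a2l (3869), Atp5h (3228), Cox6a1 (2862) and Cox8a (2838) followed. By complex, the median was 1995 per kilobase in complex V, 1706 in complex IV, 1075 in complex II, 917.7 in complex III and 709.1 in complex I. The tissue-restricted forms were low. Cox8c (testis) was listed at 0 in all 26 libraries, Cox7b2 (testis) in 25, Cox8b (heart and muscle) in 24 and Ndufa4l2 in 24, and Cox6a2 (heart and muscle) did not exceed 8.03 normalized counts. Cox7a1, another heart and muscle form, averaged 18.7 per kilobase and Cox6b2, a testis form, 91.5.

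Early OT-1 thymocytes had higher levels of most subunits than early TG6 thymocytes. Of the 78 members, 52 were called higher in OT-1 and 0 lower, where 15.4% of all genes tested were called higher and 12.4% lower. The median difference over the 78 was 0.51 (a fold of 1.42), against -0.00 over all genes, and 74 of 78 were above 0. In 63 of 78 members all 3 OT-1 libraries were above all 3 TG6 libraries, and in 0 below, against 25.1% and 21.6% of all genes. Summed over the 83, the members took 0.762% ± 0.0172 of the normalized counts in early OT-1, 0.665% ± 0.00337 in early F5 and 0.594% ± 0.00944 in early TG6 (SD, n = 3 each). In bulk RNA, fewer cells of a type and less RNA per cell cannot be told apart.

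**Figure D1:**
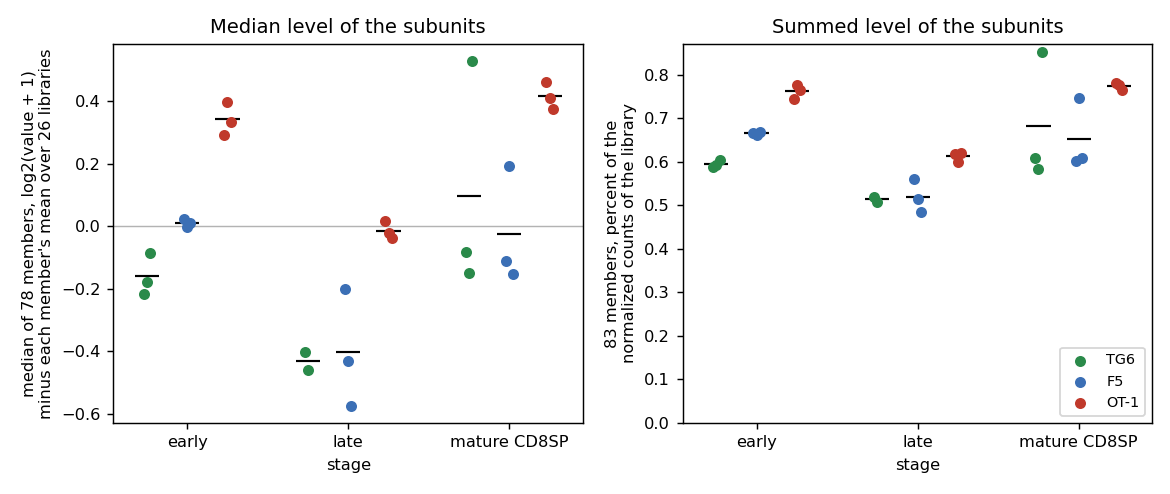
Level of the subunits in each of the 26 libraries by stage and line. Left, the median over the 78 members tested of log2(value + 1) minus the mean of that member over all libraries, and right, the sum of the 83 members as a percent of the normalized counts of the library; points are libraries and bars are group means. OT-1 libraries lie above the F5 and TG6 libraries at the early and late stages, each line is lowest at the late stage, and 1 TG6 mature library lies at 0.852%, far from the other 2.

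The difference was not even among the complexes. At the early stage the median was 0.64 in complex IV (9 of 12 called), 0.53 in complex V (12 of 17), 0.46 in complex III (5 of 9), 0.44 in complex I (24 of 36) and 0.37 in complex II (2 of 4). The 7 core subunits of complex I that are encoded in the nucleus, which carry the flavin and iron-sulfur centres, had a median of 0.19 with 3 of 7 called.

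Ndufa4, a small protein first isolated with complex I and now placed in complex IV, had the largest early difference of the 78. It lies at chr6:11900292-11907497 on GRCm38, minus strand. Its normalized counts were 808, 878 and 1025 in early TG6, 1260, 1098 and 1045 in early F5, and 1763, 1881 and 1584 in early OT-1. All OT-1 libraries were above all libraries of the other lines, and the OT-1 minus TG6 difference was 0.95 ± 0.20 (SE, limma adjusted p = 0.00109). At the late stage it had 740 and 730 in TG6, 788, 625 and 504 in F5, and 1364, 1336 and 1296 in OT-1, again without overlap (0.86 ± 0.22, limma adjusted p = 0.0104). At the mature stage TG6 had 1182, 1151 and 2120 and OT-1 had 2350, 2403 and 2055, so that the groups overlapped through TG6 mature replicate 3. The mature difference was 0.67 (limma adjusted p = 0.0348), and 0.96 (adjusted p = 0.000374) without that library.

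Among the other members counted in complex I by symbol, Ndufa12, an accessory subunit next to the core, was 0.93 ± 0.21 higher in OT-1 at the early stage (560.8 ± 41.2 against 294.9 ± 28.9 normalized counts, SD, n = 3 each, limma adjusted p = 0.00199). Ndufs1, the largest iron-sulfur subunit, behaved otherwise. Its groups had 1576 ± 237 in early TG6 and 1537 ± 72.0 in early OT-1 (SD, n = 3 each), with differences of -0.03, -0.09 and 0.02 at the 3 stages and adjusted p of 0.878, 0.680 and 0.945. Exons of Ndufs1 overlap those of Eef1b2 on the other strand, and whether the counting used strand is not given in the sources used here. Ndufv1, the NADH-binding subunit, had differences of 0.19, 0.16 and 0.21 and was called in no comparison between lines with all libraries. The mature difference of Ndufv1 was 0.30 (limma adjusted p = 0.0436) without TG6 mature replicate 3.

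Complex II was split within itself. Sdha, its flavoprotein, had 3335 ± 199 normalized counts in early TG6, 3591 ± 389 in early F5 and 3336 ± 110 in early OT-1 (SD, n = 3 each), and the OT-1 minus TG6 difference was 0.00 ± 0.10 (SE), -0.11 ± 0.11 and 0.03 ± 0.10 at the 3 stages. Sdhb, the iron-sulfur subunit that binds to it, had 1061, 1040 and 1265 in early TG6 and 1676, 1757 and 1724 in early OT-1, which did not overlap (0.62 ± 0.16, adjusted p = 0.0065 by limma). The membrane anchors Sdhc and Sdhd were 0.31 and 0.44 higher in early OT-1, and of these only Sdhd was called.

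In complex III, Uqcrq, a small subunit at the ubiquinone-binding side, was 0.79 higher in OT-1 at the early stage and 0.85 at the late stage, both called. The Rieske iron-sulfur protein Uqcrfs1 was 0.45 and 0.52 higher, both called. The core proteins Uqcrc1 and Uqcrc2 had early differences of 0.23 each, and cytochrome c1 (Cyc1) of 0.29, none of which was called.

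In complex IV, 8 subunits (Cox5a, Cox5b, Cox6a1, Cox6b1, Cox6c, Cox7a2, Cox7b and Cox8a) were 0.54 to 0.77 higher in early OT-1, each of them called. Cox8a, a small membrane subunit (chr19:7215153-7217616), had 1142, 1190 and 1348 normalized counts in early TG6 and 1908, 2073 and 2064 in early OT-1. It had 847 and 833 in late TG6 against 1624, 1421 and 1342 in late OT-1, and 1596, 1580 and 2428 in mature TG6 against 2719, 2782 and 2515 in mature OT-1. At no stage did the 2 lines overlap, and the differences were 0.72 ± 0.14, 0.80 ± 0.15 and 0.55 ± 0.14 (SE), called at all 3 stages with limma adjusted p of 0.000452, 0.000874 and 0.0132. The mature difference of Cox8a was 0.75 without TG6 mature replicate 3.

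In complex V, the early difference was 0.48 for the beta subunit Atp5b, 0.51 for the alpha subunit Atp5a1, 0.56 for the gamma subunit Atp5c1 of the central stalk and 0.71 for the epsilon subunit Atp5e, all called. The genes Atp5g1, Atp5g2 and Atp5g3 encode the same mature protein, subunit c of the rotor ring, with different import sequences. They were 0.82, 0.66 and 0.61 higher in early OT-1, all called.

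**Figure D2:**
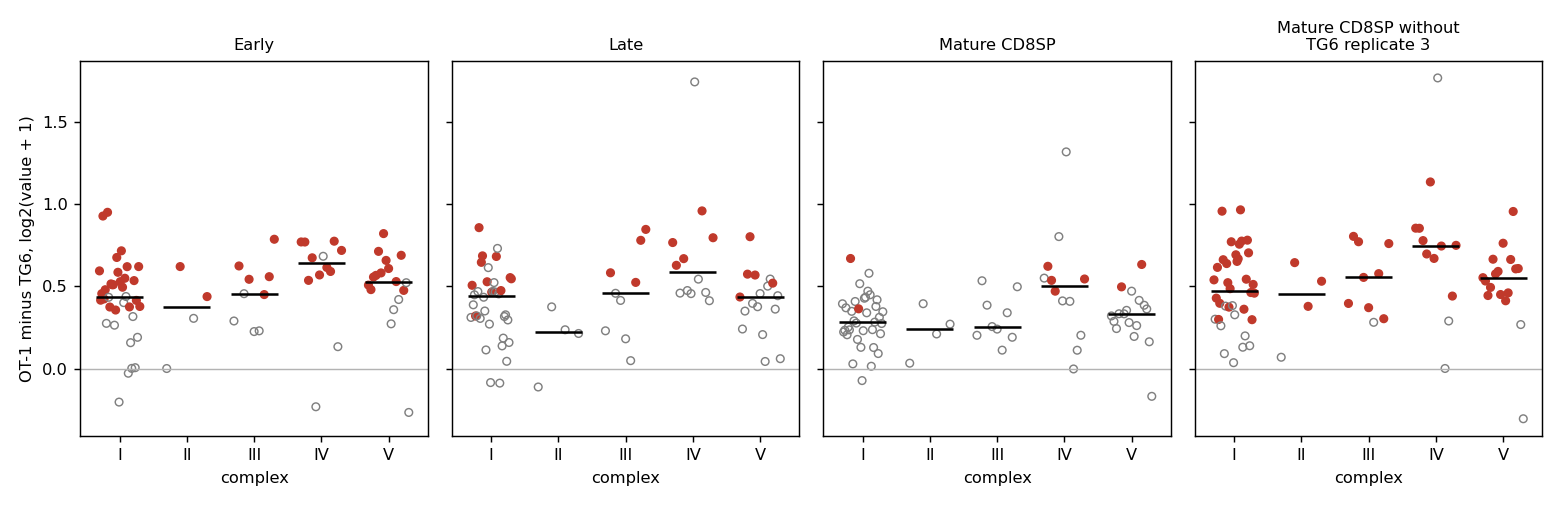
Difference between OT-1 and TG6 in log2(value + 1) for each member tested, by complex and stage, with the mature stage also shown without TG6 replicate 3. Filled points are members called at an adjusted p under 0.05 and bars are medians of the complex. Most points lie above 0 in each panel, and at the mature stage 8 members are called with all libraries and 61 without TG6 replicate 3.

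At the late stage 25 members were called higher in OT-1 than in TG6 and 0 lower (9.34% and 6.21% of all genes tested), and 8 (6.73% in either direction) without TG6 late replicate 2, which leaves TG6 with 1 late library, assumed to vary like the other groups. The median was 0.46, 75 of 78 were above 0, and in 67 of 78 members the OT-1 libraries were all above the TG6 libraries (27.8% of all genes). At the mature stage 8 were called higher and 0 lower (4.67% and 5.08% of all genes, 9.74% in either direction), with a median of 0.33 and 75 of 78 above 0, and in 4 members the OT-1 libraries were all above the TG6 libraries, a smaller share than the 10.7% of all genes. These 8 were Ndufa4, Ndufb11, Cox5b, Cox6a1, Cox6b1, Cox8a, Atp5e and Atp5k. Leaving out OT-1 mature replicate 2, TG6 mature replicate 1 or TG6 mature replicate 2 gave 0 called (5.52%, 4.56% and 4.50% of all genes in either direction), as did a fit of the 2 groups alone (0.997% and 1.18% of all genes higher and lower), so that no call at the mature stage, or at all 3 stages, held in those fits. Without TG6 mature replicate 3, 61 members were called higher and 0 lower (15% and 12.2% of all genes, 27.3% in either direction), the median was 0.54 and all 8 were among the 61. For 71 of the 78 members both other TG6 mature libraries were below all OT-1 mature libraries, which held for 28.9% of all genes. At all 3 stages 6 members were called higher than in TG6 (2.05% of all genes): Atp5e, Cox5b, Cox6b1, Cox8a, Ndufa4 and Ndufb11. That count was 39 (5.24% of all genes) in the fit without TG6 mature replicate 3. All libraries share 1 estimate of the spread, so leaving out this library also moved calls at the late stage. At least 39 members were thus called higher at the late stage in that fit, against 25 with all libraries. A test of whether the OT-1 minus TG6 difference changed from the early to the late stage called 0 members by limma (0.947% of all genes upward, 1.09% downward and 2.04% in either direction), and 1 member had an unadjusted p under 0.05.

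OT-1 also had higher levels than F5. At the early stage 10 members were called higher and 0 lower (7.81% and 4.88% of all genes), at the late stage 39 and 0 (13.6% and 10.4%), and at the mature stage 41 and 0 (13.3% and 10.1%), with medians of 0.34, 0.40 and 0.43. Atp5e, Cox6b1, Cox8a, Ndufa1, Ndufa13, Ndufa4, Ndufb11, Ndufb9 and Uqcrq were called at all 3 stages, which 4.21% of all genes were. At the early stage, in 57 of 78 members all OT-1 libraries were above all F5 libraries (20.2% of all genes), and a fit of these 2 groups alone called 42 higher and 0 lower (11.2% and 7.41% of all genes). Leaving out 1 library at a time gave 2 to 7 early, 12 to 46 late and 22 to 53 mature, and the early count was 6 without a filter and 4 with a common total. The shares of all genes in these fits are not given here, so these counts alone do not set the members apart from other genes.

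Few members were called between F5 and TG6. At the early stage 1 member was called higher in F5 and 1 lower (3.12% and 3.35% of all genes, 6.46% in all), at the late stage 2 higher and 0 lower (1.75% and 3.23%, 4.97% in all), and at the mature stage 0 higher and 0 lower by limma (2.14% and 4.50%, 6.64% in all), where 2 members were higher and 7 lower at an unadjusted p under 0.05. In 35 of 78 members all early F5 libraries were nevertheless above all early TG6 libraries and in 1 below (17% and 14.2% of all genes). The medians were 0.17, -0.01 and -0.13, and the mature median was 0.07 with 3 members called higher (3.59% of all genes) when TG6 mature replicate 3 was left out. Cox7a2l was higher in F5 than in TG6 at the early (0.32) and late (0.68) stages, Uqcrh at the late stage (0.45), and Atp5sl was lower in F5 at the early stage (-0.48). These comparisons share libraries with those above, so their values are not independent of them. In all, 22 of the 78 were called in no comparison between lines (50.7% of all genes), among them Sdha, Sdhc, Ndufs1, Ndufv1, Uqcrc1 and Uqcrc2. That number was 8 of the 78 (40.4% of all genes) without TG6 mature replicate 3, among them Sdha and Ndufs1, while Sdhc, Ndufv1 and Uqcrc1 were then called higher in mature OT-1 than in mature TG6 (0.38, 0.30 and 0.37, with limma adjusted p of 0.0215, 0.0436 and 0.000452) and Uqcrc1 also higher in F5 than in TG6 (0.31, adjusted p = 0.00425).

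The subunits also changed with stage, and the group mean of their median level was lowest at the late stage in each line. From the early to the late stage, 19 members fell and 0 rose in TG6 (13.3% and 12.1% of all genes), 39 fell and 1 rose in F5 (14.0% and 12.7%), and 27 fell and 1 rose in OT-1 (14.0% and 12.7%). The median changes were -0.28, -0.41 and -0.31. Leaving out 1 library at a time gave 3 to 13 called in TG6 (3 without TG6 late replicate 2, 16.1% of all genes in either direction), 21 to 51 in F5 and 12 to 19 in OT-1, and a fit with the replicate number as a block gave 12 in TG6 (27.7%). Sums of myeloid and dendritic genes were also lower at the late stage without overlap, going from 267.6 to 367.8 down to 151.2 and 168.6 in TG6, from 250.7 to 320.7 down to 118.4 to 173.9 in F5 and from 269.4 to 422.0 down to 185.7 to 242.3 in OT-1. B cell sums in TG6 went from 207.4 to 318.9 down to 134.7 and 153.7, and in F5 from 227.7 to 283.7 down to 165.5 to 179.6. In OT-1 they overlapped and the mean rose, with 113.8 to 137.5 early (mean 122.2) and 107.9 to 195.4 late (mean 157). The part of these lists in the steps was not tested. From the late to the mature stage, 50 rose and 0 fell in TG6 (14.5% and 7.79% of all genes), 27 rose and 0 fell in F5 (12.2% and 8.31%), and 47 rose and 1 fell in OT-1 (14.0% and 10.4%), with median changes of 0.53, 0.33 and 0.42. Without TG6 mature replicate 3, 18 rose and 0 fell in TG6 (11.3% and 5.91% of all genes) and the median was 0.31. Without F5 mature replicate 2, the 27 of F5 became 7 (13.9% of all genes in either direction). In F5 libraries with the same replicate number deviated together, and a fit with the replicate number as a block, on all libraries, called 41 at the second step (29.3% of all genes in either direction). At this step stromal and endothelial sums fell without overlap in each line. In TG6 they went from 2805 and 3274 down to 2579 to 2709. In F5 they went from 3409 to 3577 down to 2295 to 2621, and in OT-1 from 3064 to 3209 down to 1942 to 2155. B cell sums rose without overlap to 164.9 to 180.2 in TG6 and 251.0 to 279.1 in F5, and overlapped in OT-1 (194.6 to 225.9 at the mature stage). The part of these lists in this step was not tested.

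**Figure D3:**
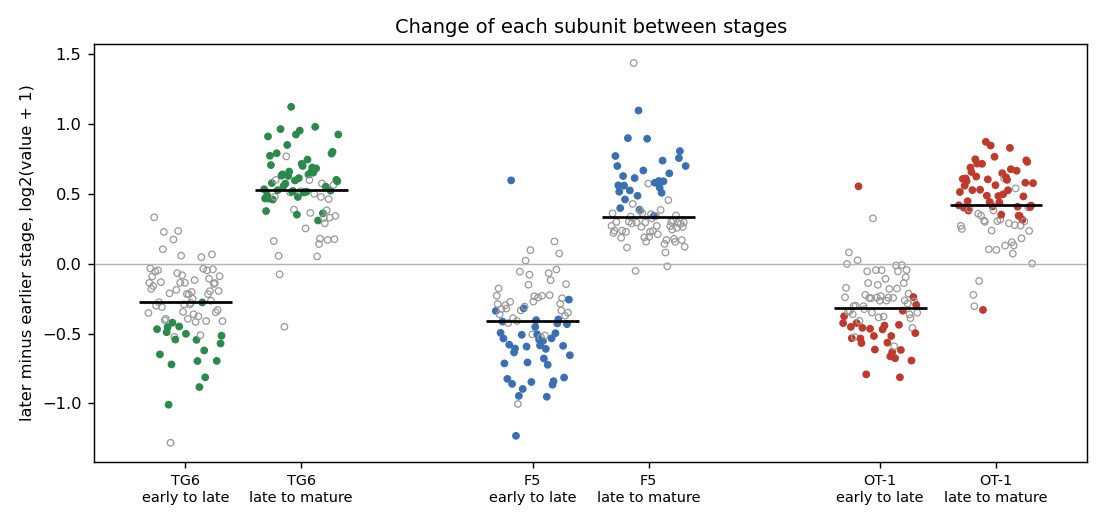
Change of each of the 78 members from early to late and from late to mature in the 3 lines, in log2(value + 1). Filled points are members called at an adjusted p under 0.05 and bars are medians. Most members lie below 0 at the first step and above 0 at the second, with medians of -0.28 and 0.53 in TG6, -0.41 and 0.33 in F5, and -0.31 and 0.42 in OT-1.

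In all 3 lines 11 members fell at the first step, as did 7.09% of all genes: Atp5h, Cox6a1, Cox6b1, Cox7a2, Cox8a, Ndufa11, Ndufb7, Ndufs4, Ndufs5, Uqcr11 and Uqcrh. At the second step 23 rose in all 3 lines (6.56% of all genes). The count was 14 without TG6 mature replicate 3 (6.22% of all genes), 13 of them among the 23, such as Cox8a, Cox5a, Cox6a1, Ndufa4, Ndufa12, Uqcrq, Cyc1, Atp5e and Atp5g1. Atp5h, Cox6a1, Cox7a2, Cox8a, Ndufb7 and Uqcr11 did both with all libraries, as did 2.85% of all genes. Among members with a mean of at least 100, Cox8a had the largest change at the second step in each line, 1.12 ± 0.15 in TG6, 1.10 ± 0.14 in F5 and 0.87 ± 0.14 in OT-1 (SE, limma adjusted p = 1.76e-05, 6.38e-06 and 9.27e-05). Without TG6 mature replicate 3 the TG6 change was 0.92 (limma adjusted p = 2.6e-05).

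Several members had larger falls at the first step. Ndufs5, an accessory subunit of complex I facing the intermembrane space, fell by 0.81 in TG6, 0.87 in F5 and 0.81 in OT-1. Ndufc1, a small membrane subunit, fell by 0.88 in TG6 and 0.95 in F5, and had -0.59 in OT-1, where it was not called. Cox7a2, the ubiquitous form of its subunit, fell by 0.72, 0.95 and 0.79. Cox6b2, the testis form, fell by 1.01 in TG6 and 1.23 in F5 but from a mean of only 74.99 and 88.27 normalized counts. By the median of the members' differences, complex IV had the largest fall of the complexes in each line (-0.47, -0.62 and -0.37), although by the median level per library complex III fell slightly more in TG6 and OT-1. The complex I core had the smallest among the groups looked at, apart from complex II in TG6 (-0.11, -0.12 and -0.14 for the core, -0.09 for complex II in TG6). Ndufs1 and Sdha had changes between -0.07 and 0.07 at this step in every line.

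The 3 genes of subunit c were also followed over the stages, with no test of a difference between them. Atp5g1 had 655.4 ± 57.1 normalized counts in early TG6, 823.5 ± 25.7 in late TG6 and 1448 ± 440 in mature TG6 (SD, n = 3, 2 and 3), and 1157 ± 65.2, 1222 ± 23.3 and 1804 ± 139 in OT-1 (n = 3 each). Its early to late changes, 0.33 in TG6, -0.32 in F5 and 0.08 in OT-1, were not called. Atp5g3, the most abundant of the 3 per kilobase, fell in F5 by 0.54 and in OT-1 by 0.45 and had -0.30 in TG6. Atp5g2 fell in F5 by 0.41 and had -0.06 in TG6 and -0.34 in OT-1. At the second step all 3 genes rose in all 3 lines with all libraries, by 0.52 to 0.77. The change of Atp5g3 in TG6 was 0.29 and not called (limma adjusted p = 0.149) without TG6 mature replicate 3.

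With all libraries, Cox7a2l and Uqcrh were the members whose OT-1 minus TG6 difference changed with stage. Cox7a2l encodes SCAF1, which joins complexes III and IV into a supercomplex, and lies at chr17:83501918-83517330. Its normalized counts were 3713, 3388 and 3343 in early TG6, 4762, 3976 and 4282 in early F5, and 5445, 5715 and 4618 in early OT-1. At the late stage they were 2784 and 2419 in TG6, 4652, 3986 and 3884 in F5, and 5027, 4838 and 5273 in OT-1, and all OT-1 libraries were above those of both other lines. At the mature stage the 3 lines lay together, with 4103, 3907 and 4028 in TG6, 4053, 3963 and 4025 in F5, and 3999, 4316 and 3734 in OT-1. The OT-1 minus TG6 difference was thus 0.59 ± 0.09, 0.96 ± 0.10 and -0.00 ± 0.09 (SE), and by limma's test of the change in this difference it fell by 0.96 from the late to the mature stage (adjusted p = 0.00121) and by 0.59 from the early to the mature stage (adjusted p = 0.00838). Cox7a2l was the 1 member that fell from late to mature in OT-1 (-0.33, limma adjusted p = 0.0118), while it rose in TG6 (0.63, adjusted p = 0.000134) and had -0.05 in F5. Leaving out TG6 mature replicate 3 gave -0.96 ± 0.14 from late to mature (limma adjusted p = 0.000976) and -0.59 ± 0.14 from early to mature (adjusted p = 0.00933).

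Uqcrh, the hinge protein that helps cytochrome c1 meet cytochrome c (chr4:116066965-116075071), had a difference that became smaller. Its levels in OT-1 were 2738, 2951 and 2821 at the early stage, 2280, 2226 and 2432 at the late stage and 2380, 2279 and 2282 at the mature stage. In TG6 they were 1871, 1936 and 1968, then 1400 and 1293, then 1936, 1813 and 2368. OT-1 libraries were above TG6 libraries at the early and late stages, and the groups overlapped at the mature stage through TG6 mature replicate 3. Without that library Uqcrh was called higher in mature OT-1 (0.30, limma adjusted p = 0.0132). The OT-1 minus TG6 difference fell by 0.59 ± 0.14 (SE) from the late to the mature stage (adjusted p = 0.0384 by limma), or by 0.48 ± 0.12 (adjusted p = 0.0364) without TG6 mature replicate 3. This call of Uqcrh was lost without a filter (limma adjusted p = 0.0583), without a trend in the prior variance (0.0721) and with only the groups compared (0.153). Leaving out 1 library at a time gave adjusted p of 0.016 to 0.266 for Uqcrh, and it was kept only without TG6 mature replicate 2 or replicate 3. Over all genes tested, 0.263% were called in the upward and 0.910% in the downward direction in this test (1.17% in either direction), and of the 78 members 0 upward and 2 downward. From the early to the mature stage 0 members were called upward and Cox7a2l alone downward (1.28% and 2.91% of all genes, 4.20% in either direction). Without TG6 mature replicate 3, Cox6b2 and Ndufs4, an accessory subunit of complex I, were also called in that test, upward (1.36 and 0.54, limma adjusted p = 0.0307 and 0.0376), where 2.66% of all genes were called upward.

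**Figure D4:**
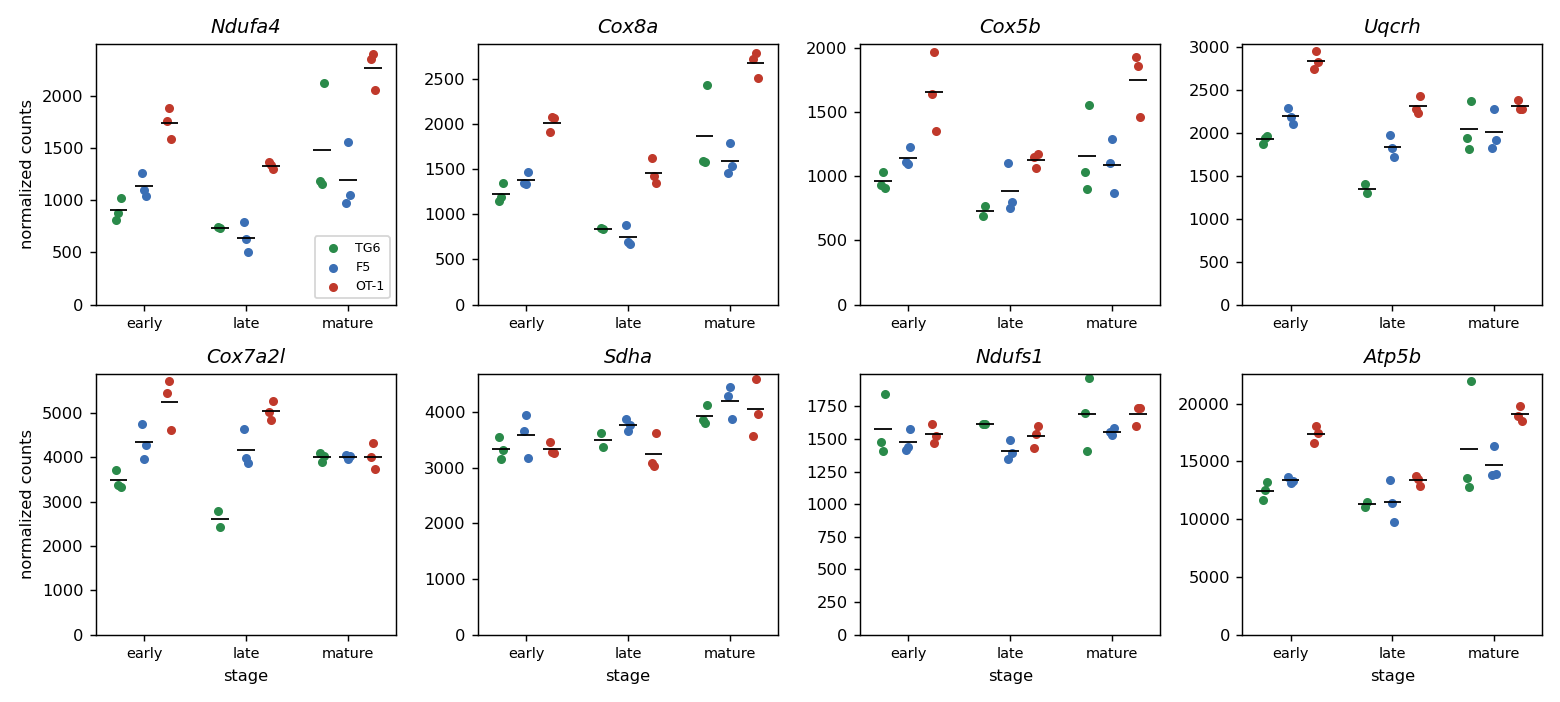
Normalized counts of 8 members in each library by stage and line (points), with group means (bars) and axes starting at 0. Ndufa4, Cox8a, Cox5b and Atp5b are highest in OT-1 at each stage by group mean, and Cox7a2l has means of 4012, 4014 and 4016 in the 3 mature groups. Sdha (3026 to 4598 over all libraries) and Ndufs1 (1350 to 1967) were called in no comparison between lines.

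Atp5sl, which despite its name acts in the assembly of complex I, was the 1 member called upward at the first step. It rose from early to late in F5 (0.60 ± 0.14, adjusted p = 0.0028) and in OT-1 (0.55 ± 0.14, adjusted p = 0.0054; limma), with 559.3 to 848.1 mean normalized counts in F5 and 653.9 to 964.6 in OT-1, and had 0.23 in TG6. When libraries were rescaled to 1 common total, Atp5sl was also called lower in early OT-1 than in early TG6 (-0.37) and lower in mature OT-1 than in mature F5 (-0.39), and Sdha lower in late OT-1 than in late F5 (-0.30). That scaling moved the median of all genes by -0.11, -0.13 and -0.10 in OT-1 against TG6 at the 3 stages, and left medians of 0.40, 0.32 and 0.24 for the members, with all libraries.

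Transcript length moved with these results. The members are short, with a median transcript of 870 bases against 2981 over the 12385 genes tested that have a length. At the early stage, members under 700 bases had a median OT-1 minus TG6 difference of 0.54 (29 members), those of 700 to 1400 bases 0.52 (26) and longer ones 0.42 (21). Other genes had 0.46 (258 genes), 0.28 (1355) and 0.03 (10696) in the same ranges. At the late stage the members had 0.47, 0.41 and 0.40 and other genes 0.35, 0.21 and 0.02. At the mature stage the members had 0.41, 0.30 and 0.27 and other genes 0.18, 0.13 and 0.01. The gap between members and other genes was thus largest among transcripts of 1400 bases or more at each stage, and smallest among the shortest at the early and late stages but not at the mature stage. In the longest range 20 of 21 members at the early stage and 19 of 21 at the late stage were higher in OT-1. That range rests on annotated lengths, and which transcripts these cells express was not looked at. It holds Atp5g1 (4715 bases, against 731 and 723 for Atp5g2 and Atp5g3), Ndufb2 (4371) and Uqcrq (1521). Between stages the changes were also largest among the shortest members, but the gap to other genes was not ordered in the same way at each step. From late to mature in TG6 members had 0.65, 0.52 and 0.39 and other genes 0.51, 0.34 and 0.01, and from early to late in F5 members had -0.61, -0.37 and -0.32 and other genes -0.15, -0.15 and 0.04. Across the 76 members, Spearman's rho of length against the OT-1 minus TG6 difference was -0.22, -0.33 and -0.38 at the 3 stages, a description over genes measured in the same libraries. The part that length has in the results was not tested.

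Cell division transcripts also moved with the members. The sum of the 8 division genes fell from 38020 to 41130 in early TG6 to 550.9 and 631.3 in late TG6 and was 14690 to 58350 in mature TG6. In F5 it was 57800 to 75050, 407.9 to 6997 and 16110 to 46700, and in OT-1 54960 to 79240, 2693 to 4810 and 62950 to 71540. All 8 genes fell at the first step and rose at the second in each line, and 6 of 8 were called higher in late OT-1 than in late TG6 (median 2.66) and 0 of 8 by limma at the early and mature stages (medians 0.66 and 1.36, with 0 and 2 at an unadjusted p under 0.05). At the mature stage 4 of 8 were called higher without TG6 mature replicate 3 (median 2.05). Within the mature stage, the 4 libraries with the highest sums (the 3 of OT-1 and TG6 replicate 3) were also the 4 with the highest median member level. Within the early stage the order differed. Early F5 had sums as high as early OT-1 but a median centred member level of 0.01 ± 0.01 against 0.34 ± 0.05 (SD, n = 3 each). Among late libraries F5 replicate 2 had the highest sum, 6997, and a member level of -0.43, below the OT-1 libraries at -0.04 to 0.02. The part of cell division in the results was not tested.

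**Figure D5:**
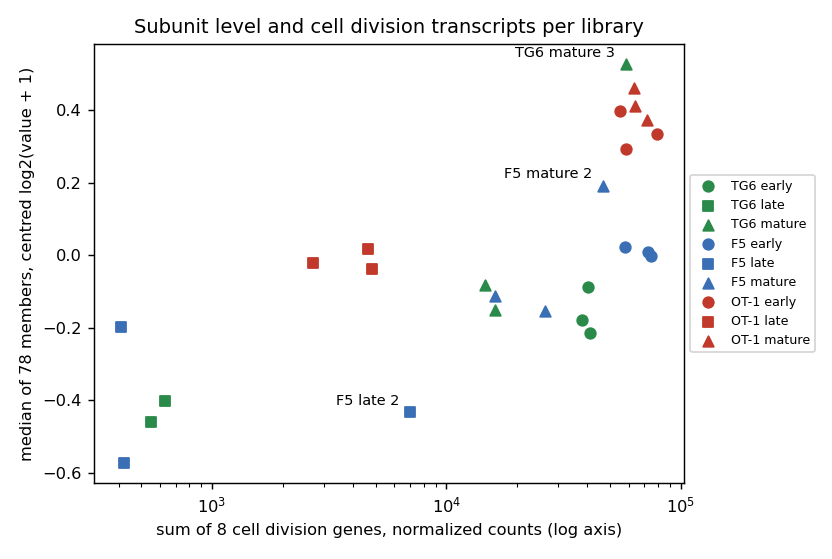
Median centred log2 level of the 78 members against the sum of normalized counts of 8 cell division genes (log axis), 1 point per library, coloured by line with a marker for each stage. Mature OT-1 and TG6 mature replicate 3 lie at the upper right, early F5 lies lower at sums as high (0.01 ± 0.01), and F5 late replicate 2 has a sum of 6997 with a level of -0.43.

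Genes of myeloid and dendritic cells were another list that differed at the early stage, with 6 of 8 called higher in OT-1 than in TG6, 1 (Itgam) called lower and 1 (Lyz2) not called (median 2.23). Their sums overlapped (269.4 to 422.0 in OT-1, 267.6 to 367.8 in TG6). In early OT-1 Itgax did not exceed 52.2 normalized counts, Csf1r 42.8 and Adgre1 18.6, and both Csf1r and Adgre1 were listed at 0 in an early TG6 library. Atp5b had 11620 to 18020 normalized counts in the early libraries of TG6 and OT-1, and levels of different genes do not give the number of such cells. The part of these cells in the results was not tested.

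Other parts of the pathway were followed by lists. In OT-1 against TG6, 15.4%, 9.34% and 4.67% of all genes tested were called higher at the 3 stages and 12.4%, 6.21% and 5.08% lower. The 13 subunits encoded in mitochondrial DNA had 8 called higher and 0 lower in early OT-1 than in early TG6 and again at the late stage, and 0 and 0 by limma at the mature stage (1 higher and 0 lower at an unadjusted p under 0.05), with medians of 0.64, 0.65 and 0.28. The mature counts were 1 higher and 0 lower without TG6 mature replicate 3 (median 0.44). Against F5, OT-1 was called higher for 10, 11 and 9 of the 13 (7.81%, 13.6% and 13.3% of all genes). Between stages, from early to late 1 of 13 fell and 0 rose in TG6, 0 were called in F5 by limma (0 also at an unadjusted p under 0.05) and 1 rose in OT-1, with medians of 0.06, -0.04 and 0.16. From late to mature 3 rose in TG6, 2 in F5 and 0 in OT-1 by limma (8, 6 and 0 at an unadjusted p under 0.05) and 0 fell, with medians of 0.45, 0.35 and 0.04. Whether these changes differed from those of the nuclear members was not tested. As a share of all normalized counts they took 2.06% ± 0.168 in early TG6, 1.88% ± 0.232 in early F5 and 2.83% ± 0.329 in early OT-1 (SD, n = 3 each). The 1 that fell in TG6 was mt-Co2, with 633.4 to 1838 normalized counts in the early and 1.966 and 1660 in the late libraries, and the 1 that rose in OT-1 was mt-Co3. The catalytic subunit of complex IV, mt-Co1, was 0.45 higher in early OT-1 and 0.65 in late OT-1 (198800 against 145800 and 221400 against 141000 mean normalized counts, both called).

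Of 5 genes that serve the complexes without being subunits (cytochrome c, Cycs, the ADP/ATP carriers Slc25a4 and Slc25a5, the phosphate carrier Slc25a3 and the ATP synthase inhibitor Atpif1), 3, 3 and 1 were called higher in OT-1 over TG6 at the 3 stages and 0 lower, with medians of 0.53, 0.61 and 0.31. All 5 were called higher at the mature stage without TG6 mature replicate 3 (median 0.68). Of all genes tested, 15.4%, 9.34% and 4.67% were called higher and 12.4%, 6.21% and 5.08% lower at the 3 stages, with all libraries. Of 14 genes of the citric acid cycle, 7, 2 and 0 were called higher and 0, 0 and 1 lower (medians 0.40, 0.21 and 0.20), and 9 higher and 1 lower at the mature stage without TG6 mature replicate 3 (median 0.32). Of 49 assembly factors, 12, 4 and 2 were called higher and 2, 1 and 1 lower (medians 0.18, 0.12 and 0.09), which at the late and mature stages is no larger a share than the 9.34% and 4.67% of all genes called higher. The mature counts of assembly factors without TG6 mature replicate 3 were 7 higher and 1 lower (median 0.16), against 15% and 12.2% of all genes. Of the subunits that the symbol rule misses, Cox4i1 was 0.44 higher in OT-1 at the early stage (3853 against 2829 mean normalized counts) and 0.44 at the late stage, both called, and had 0.24 at the mature stage, or 0.37 (limma adjusted p = 0.00387) without TG6 mature replicate 3. Ndufab1 had 0.20, 0.34 and 0.20 and was not called. Cox4i2 was not tested because of its low values.

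Among 12 regulators of mitochondrial gene expression, 1 (Tfb1m) was called higher and 1 (Esrra) lower in early OT-1 than in early TG6, 0 and 0 by limma at the late stage (1 and 0 at an unadjusted p under 0.05) and 0 and 1 at the mature stage (3 and 1 without TG6 mature replicate 3, the 3 being Nrf1, Tfam and Tfb1m, with 0.47, 0.48 and 0.55). At the 3 stages 15.4%, 9.34% and 4.67% of all genes were called higher and 12.4%, 6.21% and 5.08% lower. The mature shares were 15% and 12.2% without TG6 mature replicate 3. The estrogen-related receptor Esrra, an activator of these genes in other tissues, had 407.5 ± 46.0 normalized counts in early OT-1 against 567.6 ± 1.58 in early TG6 (-0.48, SD, n = 3 each) and 331.3 ± 18.5 against 518.3 ± 102 in the mature groups (-0.63). Nrf1, Gabpa and Tfam, the last a factor for mitochondrial DNA transcription, had early differences of 0.30, 0.03 and 0.30 that were not called. From early to late, Gabpa fell in all 3 lines (-0.34 in TG6, -0.30 in F5 and -0.56 in OT-1), Nrf1 fell in OT-1 (-0.63), and the coactivator Ppargc1b rose in all 3 (0.72, 1.25 and 1.11). From late to mature, Tfam rose in TG6 (0.52) and OT-1 (0.65) and had 0.29 in F5, and the change in TG6 was 0.36 and not called (limma adjusted p = 0.075) without TG6 mature replicate 3. Myc rose in TG6 (1.33) and F5 (1.88) and had 0.85 in OT-1. Ppargc1a did not exceed 12.5 normalized counts in any library.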

How the data were processed

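RNA from 26 sorted thymocyte libraries was sequenced. According to the study's methods and the submitters' notes, the authors used Trimmomatic 0.32 for trimming, Bowtie2 2.3.2 for alignment to mm10 and RSEM 1.2.31 to estimate reads per gene, normalized them with DESeq2, and deposited the values as 1 signal table of normalized counts per gene symbol, which are relative to a size factor per library. The gene annotation, the DESeq2 version and the strand setting of the counting are not given in the sources used here. Dividing by the value of 1 read gave whole numbers for 42.4 to 44.3% of values above 0 (within 0.01 reads), so reads were not recovered and no count test was run. The study's methods state a general sequencing depth, but the raw depth of each library is unknown, so no counting interval is given.

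From these values, log2(value + 1) was fitted with limma 3.58.1 in R 4.3.3 over all 9 groups (17 residual degrees of freedom, trended prior variance) for the 16372 genes that reached 10 in 2 or more libraries, and p-values were adjusted by Benjamini-Hochberg over all of them in each of 18 comparisons. The fit was tested on simulated data. Lengths are of the principal transcript in GENCODE vM21, and promoters are from RefSeq (66 of 83 members matched by symbol). Of the members, 28 share exon bases with another gene, so their counts are less certain. The members and gene lists were chosen with earlier results of these data known. Genes were named by rule: up to 3 called members per direction with the largest difference and a mean of at least 100, members called against the direction of most, landmark subunits, paralogs and regulators. Uqcrh, Cox6b2 and Ndufs4 in the tests of a change with stage, and members listed because they were called at every stage or in every line, were named after their values were seen. Replicate numbers were treated as pairing where every same-numbered pair of stages had deviations correlated over 0.1, which held in F5 (9 of 9 pairs, 0.106 to 0.340) and not in OT-1 (5 of 9) or TG6 (2 of 7). Alternatives were other pseudocounts, filters, scalings, sample sets and prior variances, a replicate block, each library of the groups compared left out and a stricter subunit list.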

Additional observations from a re-analysis of the deposited data

Results flagged for a closer look

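The OT-1 minus TG6 difference changed with stage for 2 members with all libraries, by a limma test of that change over all genes tested. For Cox7a2l it changed by -0.96 ± 0.14 (SE, limma adjusted p = 0.00121) from the late to the mature stage and by -0.59 ± 0.13 (adjusted p = 0.00838) from the early to the mature stage. For Uqcrh it changed by -0.59 ± 0.14 (adjusted p = 0.0384, limma) from the late to the mature stage, and was no longer called with only the groups compared (adjusted p = 0.153, limma). No group held 4 or more libraries, so no single library was tested as standing apart from its group.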

How the results depend on the processing

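No called result turned its direction under the alternatives run. Without TG6 mature replicate 3 the median difference of the members turned from -0.13 to 0.07 for F5 vs TG6 mature, and for the change in the OT-1 minus TG6 difference from -0.09 to 0.14 (late to mature; 0.06 with a replicate block) and from -0.14 to 0.07 (early to mature). The median for F5 vs TG6 late, -0.01, turned to 0.01 to 0.05 without TG6 late replicate 1, F5 late replicate 2 or F5 late replicate 3. With only the groups compared, the count of members called went from 25 to 45 for OT-1 vs TG6 late, 8 to 0 mature, 10 to 42 for OT-1 vs F5 early, 2 to 9 for F5 vs TG6 early and 2 to 1 late, 50 to 4 for TG6 and 27 to 6 for F5 late to mature, 28 to 48 for OT-1 early to late, and 2 to 1 for the change in the OT-1 minus TG6 difference from late to mature. With a common total, it went to 15 and 4 for OT-1 vs TG6 late and mature and to 4 for OT-1 vs F5 early. Without a filter it went to 3 for OT-1 vs TG6 mature, 6 for OT-1 vs F5 early, 0 for F5 vs TG6 early and 1 for the late to mature change in difference. Without a trend in the prior variance it went to 3, 0 and 1 for OT-1 vs TG6 mature, F5 vs TG6 early and that change. Quantile normalization gave 1 in place of 0 for F5 vs TG6 mature. The stricter subunit list, without Cox7a2l and Atp5sl, gave 0 and 1 for F5 vs TG6 early and late, and 1 and 0 for the change in difference from late and from early to mature. The causes were not tested.

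With a replicate block the count was 12 in place of 19 for TG6 early to late, 31 in place of 50 for TG6 late to mature and 41 in place of 27 for F5 late to mature, and moved no other count by over 1.5 times. Only in F5 did every same-numbered pair pass the cutoff of 0.1 used to treat replicate numbers as pairing. Same-numbered pairs had correlations of 0.0189 to 0.178 in OT-1 and 0.023 to 0.274 in TG6, so pairing in these lines is not settled.

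Leaving out 1 library at a time gave 35 to 49 members called for OT-1 vs TG6 early, 8 (without TG6 late replicate 2) to 17 late and 0 (without OT-1 mature replicate 2) to 61 (without TG6 mature replicate 3) mature. It gave 2 to 7, 12 (without F5 late replicate 3) to 46 and 22 (without F5 mature replicate 3) to 53 for OT-1 vs F5, and 0 to 1, 1 to 2 and 0 to 3 for F5 vs TG6. For early to late it gave 3 (without TG6 late replicate 2) to 13 in TG6, 21 (without F5 late replicate 3) to 51 in F5 and 12 (without OT-1 early replicate 2) to 19 in OT-1. For late to mature it gave 16 (without TG6 late replicate 2) to 63 in TG6, 7 (without F5 mature replicate 2) to 37 in F5 and 28 to 36 in OT-1. For the change in the OT-1 minus TG6 difference it gave 0, 1 to 2 and 1 to 3. Only libraries of the groups compared were left out, so the effect of other libraries on the shared spread is not in these ranges. Shares of all genes are given above for only some of these fits.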
